A study of Mus musculus with 59 samples.

Results

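The primitive endoderm genes examined were the transcription factors Gata4, Gata6, Sox7 and Sox17, the endocytic genes Dab2 and Cubn, and the basement membrane genes Lama1, Lamb1, Col4a1 and Col4a2. They were taken by name from the platform annotation, and each was represented by its brightest probe set (highest mean of the 59 values). All 10 genes were on the array, among 11807 named genes, and together they had 18 probe sets. The data were mouse expression arrays (Affymetrix), with 1 array for each of 59 pluripotent lines. NT-7, NT-8 and NT-9 were singled out because the 10 genes were already known to be high together in them, so their values are given as a description, with no test. Fits that pool them with the other NT-ESC are given as counts of genes only, and nothing about these lines is read from them.

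The lines fell into these groups. The 4 ESC clones were targeted KH2 embryonic stem cells. The 48 iPSC clones came from somatic cells of chimeric mice made with ESC that carried an inducible cassette with the reprogramming genes Oct4, Sox2, Klf4 and myc. Of these, 6 came from embryonic fibroblasts (MEFs) of chimera 1. The other 42 came from 3 animals, named mouse 1, mouse 2 and chimera 2 in the labels, and had blood or fibroblast origins. There were 31 blood-derived clones, of which 11 came from haematopoietic stem cells (HSC), 11 from granulocyte-macrophage progenitors (GMP) and 9 from granulocytes. The 11 fibroblast-class clones were labelled PF (2 of mouse 1 and 3 of mouse 2) or TTF (6 of chimera 2), terms the labels do not expand. Adeno-2 was a single Adeno-iPSC clone of fetal liver origin. The 6 NT-ESC were embryonic stem cell lines from blastocysts cloned by nuclear transfer from an iPSC donor. NT-4, NT-5 and NT-6 are subclones with Adeno-2 as donor, NT-7 had iPSC-7 (HSC origin, mouse 1) as donor, and NT-8 and NT-9 are subclones with iPSC-15 (granulocyte origin, mouse 1) as donor. Per the labels, all lines were kept on a feeder layer of irradiated MEFs in medium containing LIF and 15% FBS, and feeders were reduced by preplating for 45 minutes before RNA was extracted. No age, sex or passage is used here.

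Primitive endoderm is the epithelium that forms on the inner cell mass of the blastocyst beside the epiblast, under FGF signalling, and gives rise to the visceral and parietal endoderm of the yolk sac. Gata6 acts early in this lineage and Gata4, Sox17 and Sox7 follow, after which the cells make the endocytic adaptor Dab2 and the receptor cubilin and lay down a basement membrane of laminin-111 and type IV collagen. Mouse ESC cultures can contain a minority of cells of this lineage, and forced Gata4 or Gata6 converts ESC into it.

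The promoter sequences are shown first because both collagen genes move together below and Dab2 differs between clones. Col4a1 and Col4a2 encode the chains of the most widespread type IV collagen and lie head to head, so that the start sites used here are 21 bases apart and the windows below share 78 bases on opposite strands. Dab2 has an upstream start with both GATA-type motifs that were searched, AGATAA and TGATAA, on either strand. The windows run from 250 bases before to 50 bases after a start site, 5′ to 3′ on the gene's strand, and come from RefSeq on assembly GRCm38.p6. Capitals mark CCAAT or GGGCGG on either strand in the collagen windows and the GATA-type motifs on either strand in the Dab2 windows.

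Col4a1, chr8:11312777-11313076, minus strand: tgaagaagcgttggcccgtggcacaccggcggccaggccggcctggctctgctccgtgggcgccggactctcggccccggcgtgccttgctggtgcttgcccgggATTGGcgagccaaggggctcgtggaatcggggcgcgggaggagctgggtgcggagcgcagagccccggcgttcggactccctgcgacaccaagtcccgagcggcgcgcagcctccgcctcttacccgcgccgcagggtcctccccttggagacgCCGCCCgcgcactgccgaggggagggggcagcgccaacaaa
Col4a2, chr8:11312555-11312854, plus strand: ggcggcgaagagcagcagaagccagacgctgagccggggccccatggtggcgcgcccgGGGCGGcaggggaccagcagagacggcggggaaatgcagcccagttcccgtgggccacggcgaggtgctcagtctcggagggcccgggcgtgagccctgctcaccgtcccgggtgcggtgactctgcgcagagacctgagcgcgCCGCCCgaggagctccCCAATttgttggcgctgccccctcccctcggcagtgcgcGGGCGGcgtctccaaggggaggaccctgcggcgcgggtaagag
Dab2, upstream start, chr15:6299539-6299838, plus strand: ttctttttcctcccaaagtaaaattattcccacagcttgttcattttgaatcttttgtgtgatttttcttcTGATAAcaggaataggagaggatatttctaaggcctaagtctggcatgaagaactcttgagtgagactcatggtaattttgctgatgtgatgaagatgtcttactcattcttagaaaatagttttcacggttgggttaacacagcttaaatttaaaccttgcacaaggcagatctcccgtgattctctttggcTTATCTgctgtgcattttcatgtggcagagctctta
Dab2, other start, chr15:6386498-6386797, plus strand: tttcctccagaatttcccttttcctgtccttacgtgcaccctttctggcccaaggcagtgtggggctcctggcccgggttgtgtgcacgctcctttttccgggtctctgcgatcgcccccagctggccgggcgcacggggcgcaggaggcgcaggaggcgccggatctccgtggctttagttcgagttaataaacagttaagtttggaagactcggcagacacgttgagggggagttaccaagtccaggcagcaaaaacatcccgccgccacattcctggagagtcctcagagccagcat

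Both collagen windows held CCAAT and GGGCGG, as did 12.8% of the 32851 mouse promoter windows of this length. The upstream Dab2 window held TGATAA at position 72 and the reverse complement of AGATAA at position 265, counted from the window's first base, and 1.6% of all windows held both. The other Dab2 window held neither, and either motif alone or both occurred in 18.6% of all windows. Of the 10 members 5 had windows, 6 windows in all, and the Cubn and Lamb1 windows also lacked both GATA-type motifs. A match describes the letters of a window and was not tested as a binding site.

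The deposited values are log2 intensities centred near 0 on each array, so a difference of 1 is a 2-fold difference, and values of different genes are not compared with each other. The arrays of NT-7, NT-8 and NT-9 stood apart as a whole. All 3 lines lay above every one of the other 56 arrays for 2331 of the 11807 genes and below all of them for 1652. The SD of all values was 2.35 to 2.47 on these arrays and 2.54 to 2.64 on the others. Quantile normalization, which gives all arrays the same distribution, was therefore applied as a second scaling to the counts of genes above or below the other arrays and to the joint rise. The differences from donors and between subclones below are on the deposited scale only. A further array, iPSC-32 of the PF clones of mouse 2, had Pou5f1 at 0.28, where the median over the 56 arrays other than NT-7, NT-8 and NT-9 was 4.72, together with the highest feeder fibroblast marker mean, 2.07. The comparison of cells of origin is also given without it. RNA came from whole cultures, so a larger share of cells of a type and more RNA per cell cannot be told apart.

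In NT-7, NT-8 and NT-9, 9 of the 10 primitive endoderm genes were above their highest value in the other 56 arrays in all 3 lines. The same held for 19.7% of all genes. Sox7 was the exception. The mean of the 3 lines exceeded the mean of the other 56 arrays by a median of 2.38 log2 units over the 10 genes, against 0.21 over all genes. An excess of 2 log2 units or more was found for 7 of the 10 genes and for 1.3% of all genes. After quantile normalization the counts were 9 of 10 genes and 14.9% of all genes, with median excesses of 2.57 and 0.08.

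**Figure D1:**
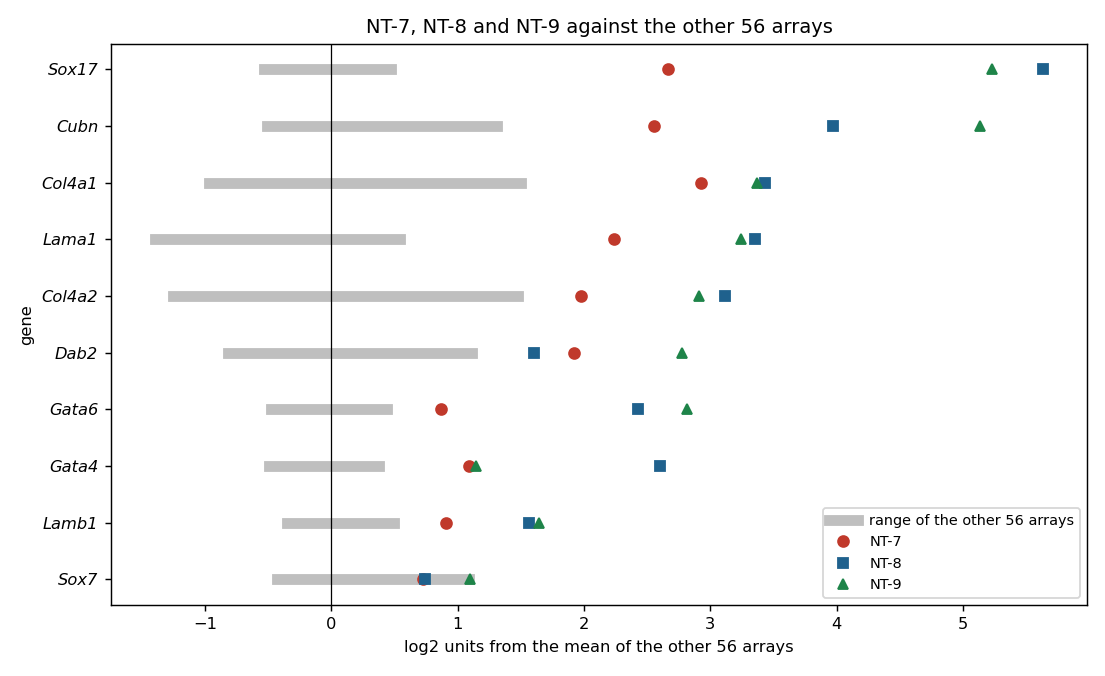
Difference in log2 value between NT-7, NT-8 or NT-9 and the mean of the other 56 arrays, for each gene, with the grey bar giving the range of those 56 arrays. The 3 lines lie to the right of the grey bar for 9 genes, and for Sox7 they lie within it or at its upper end.

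Among the transcription factors, Sox17, an SRY-box factor of endoderm, stood at -0.60 in NT-7, 2.37 in NT-8 and 1.96 in NT-9, whereas the other 56 arrays ran from -3.79 to -2.79 with a median of -3.27. The 2 iPSC-15 subclones were far above NT-7, and NT-7 was in turn clear of all other arrays. The mean excess of Sox17 with this probe set was 4.51 log2 units, rank 3 of 11807 genes. The size depends on the probe set, and this one was the brightest of the gene only because the 3 lines entered the choice. In the other 56 arrays the second probe set was brighter, with a mean of -3.12 against -3.26. It was at -2.25 in NT-7, -1.14 in NT-8 and -1.53 in NT-9, again above all other arrays (at most -2.68), with a mean excess of 1.48 and rank 371. When every gene was represented by its brightest probe set over the other 56 arrays, an alternative chosen after seeing the data, Sox17 was the only member with another probe set. The count above stayed at 9 of 10, against 19.6% of all genes, and the median excess of the members was 2.07.

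Gata6, a zinc finger factor at the top of the primitive endoderm programme, was at -0.91 in NT-7, 0.64 in NT-8 and 1.03 in NT-9. The other 56 arrays ran from -2.26 to -1.34, with a median of -1.77. The 3 lines did not overlap with them, although NT-7 exceeded the highest by only 0.43. Gata4, which acts with Gata6, was at -1.0 in NT-7, 0.51 in NT-8 and -0.94 in NT-9, against -2.58 to -1.71 (median -2.07) in the others. Here NT-8 was the high line and NT-7 and NT-9 were close together. Sox7, an SRY-box factor of primitive and later parietal endoderm, was at -2.06, -2.05 and -1.69 in NT-7, NT-8 and NT-9. The other arrays ran from -3.22 to -1.70, and ESC-1 (-1.70) and Adeno-2 (-1.78) reached the level of the 3 lines.

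Of the endocytic genes, Cubn, which encodes the multiligand receptor cubilin of absorptive epithelia, was at 0.35 in NT-7, 1.76 in NT-8 and 2.93 in NT-9. The other 56 arrays ran from -2.71 to -0.90 with a median of -2.30, and the highest was iPSC-4. All 3 lines were clear of it, NT-9 by most, and the mean excess of 3.89 ranked 7 of 11807. Dab2, a clathrin adaptor that links receptors to the endocytic machinery, was at 1.00, 0.68 and 1.85, against -1.74 to 0.19 (median -0.96) in the others. The 3 lines were above the highest of these, iPSC-2, and NT-8 was nearest to it.

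For the basement membrane genes NT-8 and NT-9 lay close together and above NT-7. Col4a1 was at 4.50, 5.01 and 4.95 in NT-7, NT-8 and NT-9, and at 0.61 to 3.08 (median 1.57) in the other 56 arrays. Col4a2 was at 3.31, 4.45 and 4.25, and at 0.08 to 2.82 (median 1.25) in the others. Both collagen genes were therefore above iPSC-32, the highest other array for each, by at least 0.49 log2 units. Lama1, the laminin alpha chain of early embryonic basement membranes, was at 3.29, 4.41 and 4.30 against -0.34 to 1.60 (median 1.13) elsewhere. Lamb1, its beta chain partner, was at 4.15, 4.81 and 4.89 against 2.90 to 3.74 (median 3.21). Lama1 was well separated, while Lamb1 was separated by 0.41 in NT-7. Mean excess ranked 16 of 11807 genes for Col4a1, 28 for Lama1, 42 for Col4a2, 126 for Dab2, 143 for Gata6, 297 for Gata4, 484 for Lamb1 and 1973 for Sox7.

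Gata4, Sox7, Sox17 and Cubn have probe sets among the dimmest 2952 genes, where 29.5% of genes had all 3 lines above the other arrays in the deposited values. That share was 7.08% after quantile normalization, and for the other genes it was 16.5% and 17.5%. Part of the separation of dim genes therefore depends on the scaling, but after quantile normalization Gata4, Sox17 and Cubn were still above all other arrays in the 3 lines. The other probe sets of the members were less uniform. In 13 of the 18 probe sets all 3 lines were above the other 56 arrays. The second probe sets of Gata4 and of Lamb1 were above in 2 lines, the second of Dab2 and the only one of Sox7 in 1 line, and the third of Lamb1 in 0 lines, with a mean excess of -0.12. The rise of Lamb1 was thus not seen by every probe set of the gene.

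Each line was next set against its own donor. NT-7 had 6 of the 10 genes at least 1 log2 unit above iPSC-7, and 19.9% of all genes were that far above. NT-8 had 9 of 10 above iPSC-15, against 14.2% of all genes, and NT-9 also had 9, against 9.01%. Lama1 was 5.05-, 9.14- and 8.48-fold the donor level in NT-7, NT-8 and NT-9. Sox17 was at -3.23 in iPSC-7 and -3.42 in iPSC-15, and Cubn at -1.96 and -2.51. These donor values are among the dimmest of the array, so no fold is given for either gene. Sox7 exceeded its donor by 0.89, 0.45 and 0.81 log2 units, the smallest difference of the 10 genes in NT-8 and NT-9, and in NT-7 the smallest was that of Lamb1, 0.62. iPSC-7 and iPSC-15 themselves had 1 and 0 of the 10 genes at least 1 log2 unit above the median of the 52 ESC and iPSC arrays.

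NT-8 and NT-9 share a donor, and their values were alike for the matrix genes and unlike for others. NT-9 minus NT-8 was -1.45 for Gata4, 1.17 for Dab2 and 1.16 for Cubn, and within 0.41 in either direction for the other 7 genes. Between these 2 subclones 9.01% of all genes differed by more than 1 log2 unit. The SD of the difference over all genes was 0.606, against 0.175 between NT-5 and NT-4, which also share a donor.

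Other genes of the lineage were read from lists of its neighbours and partners. Of all genes 19.7% were above the other 56 arrays in all 3 lines and 14.0% below, and each list count is to be read beside these shares. Of 21 measured visceral endoderm genes 10 were above all other 56 arrays in the 3 lines and 0 below, with a median excess of 1.12 log2 units. Apoa1, an apolipoprotein secreted by yolk sac and liver, was at 2.25, 3.26 and 2.46 in NT-7, NT-8 and NT-9 and at most -0.80 elsewhere. Rbp4, the plasma retinol carrier, was at 1.21, 1.95 and 1.52 and at most -1.34 elsewhere. Ttr, Afp and Amn, the last of which encodes the membrane partner of cubilin, were among the others. The transthyretin gene Ttr was at 0.14, 0.11 and 1.09 against at most -0.84. Amn was at 0.59 in NT-7, 0.29 in NT-8 and -0.38 in NT-9, an order opposite to that of Cubn, and was at most -1.01 elsewhere. Hhex, Trf and Apoe of the same list were not above the other arrays in any line.

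The parietal endoderm list showed 1 of 13 genes above in all 3 lines. That gene was Srgn, a secretory granule proteoglycan, at 2.30, 4.29 and 4.00 against at most 0.34 elsewhere. Fst, Pth1r, Nid1, Stra6 and Sparc were above the other arrays in some of the 3 lines only. Pth1r was at -1.14, 0.31 and 0.63 against at most -0.82. Thbd, Plat and Ctsl, which also belong to that list, lay within or below the range of the other arrays in all 3 lines. The median excess of the list was 0.59 log2 units, against 0.21 over all genes. Its mean was 1.49, 1.91 and 2.13 in NT-7, NT-8 and NT-9, and 0.818 to 1.615 elsewhere. Of the specification list of 6, Foxa2 (-0.44, 1.03 and -0.47 against at most -1.55) and Foxq1 were above in all 3 lines, and the FGF receptor genes Fgfr1 and Fgfr2 and the adaptor gene Grb2 were below in all 3. Fgfr2 was at -1.99, -1.88 and -1.85, and at 0.11 to 2.16 in the other arrays. Fgf4, the ligand, was at 4.71, 4.78 and 5.25, inside the range of 4.16 to 5.62 elsewhere.

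Of 16 matrix partner genes 4 were above in all 3 lines, where 19.7% of all genes were. They were the collagen prolyl hydroxylase gene P4ha2, the perlecan gene Hspg2, Lamb2 and Col18a1. Hspg2 was at 4.36, 4.34 and 4.18 against 2.16 to 2.97 elsewhere. The laminin gamma chain gene Lamc1, whose product assembles with those of Lama1 and Lamb1, was at 1.40, 2.35 and 3.45 against 2.35 to 3.58, so that no line was above the others. Itgb1, the beta-1 integrin of laminin and collagen receptors, was at 1.26, 0.48 and 0.82 and thus below the lowest other array, 2.65. Of 6 endocytic partners Amn and the AP-2 adaptor gene Ap2a1 were above in all 3 lines. After quantile normalization 8 of 21 visceral, 2 of 13 parietal and 2 of 6 specification genes were above in all 3 lines. So were 6 of 16 matrix and 3 of 6 endocytic genes, and 1 specification gene was below in all 3. Of all genes 14.9% were then above and 12.6% below.

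Markers of other cells in these lines were as follows, and their part in the result was not tested. Of 20 pluripotency genes 0 were above and 4 below in all 3 lines (Lin28a, Gdf3, Nanog and Sall4). Pou5f1 was at 4.06, 3.78 and 3.90 and Sox2 at 4.05, 3.95 and 4.13 in NT-7, NT-8 and NT-9. Sox2 was within the range of the other arrays. For Pou5f1, NT-8 and NT-9 were below every other array except iPSC-32 (0.28), the next lowest being iPSC-34 at 4.06. Nanog, at 4.56, 4.18 and 4.56, was below the range of the other arrays, 4.63 to 5.24, and furthest below it in NT-8. Lin28a was at -0.34, -0.18 and 2.02 against at least 3.96 elsewhere, and Gdf3 at 1.02, 0.78 and 2.31 against at least 2.56. The mean of the pluripotency list was 3.41 in NT-7 and 3.274 and 3.685 in the 2 subclones with iPSC-15 as donor. It was 3.42 to 4.21 in the other arrays. After quantile normalization 2 of the 20 were above and 2 below. Of 19 feeder fibroblast markers 0 were above, and their mean was 1.09, 1.22 and 1.39 within a range of -0.34 to 2.07 in the other arrays. Of 12 trophoblast genes 4 were above (Krt7, Krt8, Ascl2 and Hand1), of 11 endothelial genes 2, and of 10 genes of streak, mesoderm and definitive endoderm 2. The trophoblast list mean was 0.36 to 0.53 in the 3 lines and -0.77 to -0.15 in the others. After quantile normalization the counts above were 4 of 12 trophoblast, 0 of 11 endothelial, 1 of 10 streak and 1 of 19 feeder genes. Of all genes 19.7% were above and 14.0% below in the deposited values, and 14.9% and 12.6% after quantile normalization. The deposited endothelial and streak counts lay near the share of all genes.

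Outside NT-7, NT-8 and NT-9 no array had more than 2 of the 10 genes raised at a limit of 1 log2 unit. A gene was counted when it was at least 1 log2 unit above the median of the 52 ESC and iPSC arrays. By that measure 7 of the 10 genes were raised in NT-7, 9 in NT-8 and 10 in NT-9, where 18.7%, 14.7% and 8.8% of all genes were raised. Of the other 56 arrays 47 had 0 genes raised, 7 had 1 and 2 had 2. After quantile normalization 7, 9 and 8 genes were raised in NT-7, NT-8 and NT-9, where 15.8%, 13.2% and 7.83% of all genes were. NT-9 then lacked Gata4 and Sox7, NT-7 had Lamb1 and not Gata4, and iPSC-34 (Col4a1 and Col4a2) was the second other array with a pair in place of iPSC-45. On the deposited scale the 2 arrays with a pair were iPSC-32 (Col4a1 and Col4a2, with 2.68% of all genes raised) and iPSC-45 (Col4a2 and Cubn, with 0.551%). Single genes were raised in ESC-1 (Sox7, 0.711% of all genes), iPSC-2 (Dab2, 1.95%), iPSC-4 (Cubn, 1.07%), iPSC-7 (Col4a2, 1.3%), iPSC-33 (Col4a2, 0.796%), iPSC-46 (Dab2, 1.48%) and Adeno-2 (Sox7, 1.23%). Gata4, Gata6, Sox17, Lama1 and Lamb1 were raised in none of these 9 arrays. With a limit of 0.5 log2 units Adeno-2 had 5 genes raised (Sox7, Dab2, Col4a1, Col4a2 and Cubn), where 6.05% of all genes were. At that limit iPSC-45 had 4 (3.46% of all genes), and iPSC-7 (4.17%), iPSC-32 (7.3%) and iPSC-46 (6.2%) had 3 each. All 10 were then raised in NT-7, NT-8 and NT-9, where 39.4%, 35.9% and 29.4% of all genes were.

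**Figure D2:**
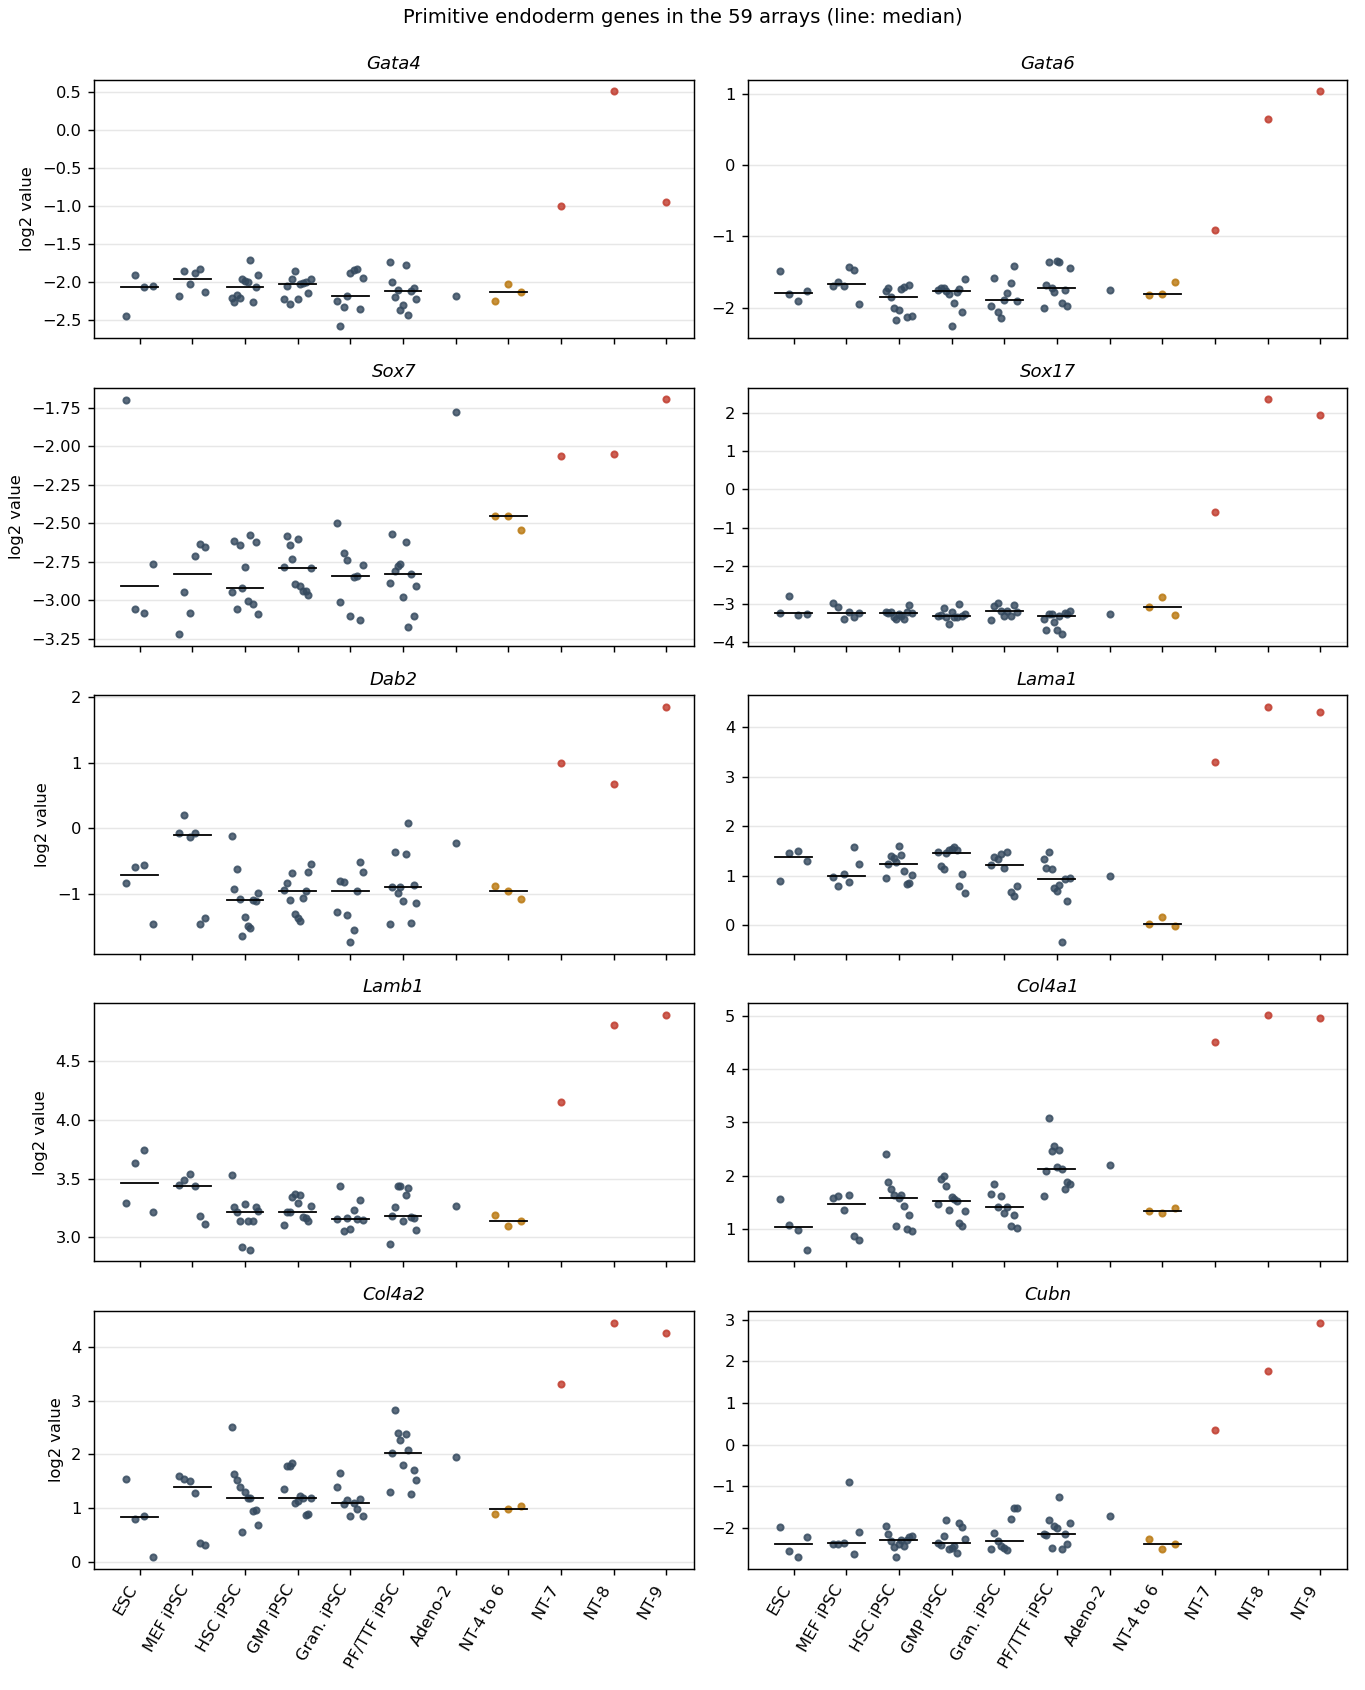
Log2 value of each primitive endoderm gene in every one of the 59 arrays, by class of line, with the median of a class as a black line. The points of NT-7, NT-8 and NT-9 are high in every panel except that of Sox7, and Col4a1 and Col4a2 differ most between the other classes.

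The levels in the other classes were close to each other for most of the genes. Over the 52 ESC and iPSC arrays the SD was 0.17 to 0.24 log2 units for Gata4, Gata6, Sox7, Sox17 and Lamb1, whereas it was 0.36 to 0.56 for Cubn, Lama1, Dab2, Col4a1 and Col4a2. The SD of Col4a2 was larger than that of 97.2% of all genes. Among the means of the ESC and iPSC classes, Gata4 ran from -2.13 ± 0.27 (SD, n = 9) in granulocyte-derived clones to -1.99 ± 0.15 (SD, n = 6) in MEF-derived clones. Gata6 ran from -1.90 ± 0.19 (SD, n = 11) in HSC-derived clones to -1.65 ± 0.18 (SD, n = 6) in MEF-derived clones. Sox7 was between -2.88 and -2.80 in all iPSC classes and at -2.65 ± 0.65 (SD, n = 4) in ESC, where ESC-1 alone was high. Lamb1 was highest in ESC, at 3.47 ± 0.26 (SD, n = 4), followed by MEF-derived clones at 3.37 ± 0.18 (SD, n = 6), and lay between 3.18 and 3.24 in the other iPSC classes. Dab2 had the largest SD within a class, 0.73 among the 6 MEF-derived clones, which ran from -1.46 to 0.19. Sox17 ran from -3.42 ± 0.21 (SD, n = 11) in PF and TTF clones to -3.15 ± 0.24 (SD, n = 4) in ESC, and Lama1 from 0.85 ± 0.49 (SD, n = 11) to 1.29 ± 0.27 (SD, n = 4) in the same classes. Cubn ran from -2.37 ± 0.33 (SD, n = 4) in ESC to -2.07 ± 0.35 (SD, n = 11) in PF and TTF clones. For these genes neighbouring classes in the order differed by less than the larger of their SDs.

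Col4a1 was lowest in ESC (1.06 ± 0.39, SD, n = 4), then in MEF-derived (1.31 ± 0.38, SD, n = 6), granulocyte-derived (1.40 ± 0.28, SD, n = 9), HSC-derived (1.51 ± 0.43, SD, n = 11) and GMP-derived clones (1.53 ± 0.31, SD, n = 11), and highest in the PF and TTF clones (2.19 ± 0.43, SD, n = 11). Col4a2 had the same order, from 0.82 ± 0.60 (SD, n = 4) to 1.96 ± 0.49 (SD, n = 11). Only the last step was larger than the SD of the classes.

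Whether iPSC differ from ESC in these genes was tested with limma, fitted on all genes with Benjamini-Hochberg adjustment and a threshold of 0.05. No primitive endoderm gene passed between ESC and the 6 MEF-derived clones, and 0% of all genes passed (0 of 11807). Unadjusted p was under 0.05 for 997 genes and for 0 of the 10 members. The median difference, iPSC minus ESC, was 0.12 log2 units over the members and 0.01 over all genes. The smallest adjusted p of a member was 0.761 (limma), for Lama1. ESC values of Lama1 were 0.90, 1.46, 1.49 and 1.30, and MEF-derived clones ran from 0.80 to 1.59 with a median of 1.00, so the groups overlapped.

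Against all 48 iPSC again 0 of 10 members passed, and 4.94% of all genes did, 2.52% as higher and 2.41% as lower in iPSC. Unadjusted p was under 0.05 for 3 of them. Lamb1 was at 3.29, 3.63, 3.74 and 3.21 in ESC and ran from 2.90 to 3.54 in iPSC, a difference of -0.24 with adjusted p = 0.079 in limma. Col4a1 was 0.56 higher in iPSC (adjusted p = 0.147, limma) and Col4a2 0.57 higher (adjusted p = 0.205, limma). The ESC values of Col4a1, 1.57, 1.08, 0.98 and 0.61, lay in the lower part of the iPSC range of 0.80 to 3.08 or under it. The 19 feeder fibroblast markers had a median difference of 0.58 in the same direction, with 11 at an unadjusted p under 0.05 and 0 passing, and their part was not tested. These 2 comparisons share the ESC arrays. Of the partner lists, Myo6, a motor of endocytic vesicles (-0.85, adjusted p = 0.0293), and the visceral endoderm genes Fgg (-1.22, adjusted p = 0.0408) and Apoe (-0.56, adjusted p = 0.046) were lower in all iPSC by limma, and no matrix, specification or parietal gene passed. These calls were lost with animal as a random block, where limma called 0 genes (900 at an unadjusted p under 0.05), and the count of all genes called was 6 without ESC-2 and 5 without ESC-3.

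The cell of origin was compared in the 42 clones of 3 animals, with animal as a term. Col4a1 and Col4a2 were lower in blood-derived than in fibroblast-derived clones, and Sox17 and Lama1 were slightly higher. These 4 of 10 members passed, where 49.7% of all genes passed. The median difference, blood-derived minus fibroblast-derived, was -0.07 log2 units over the members and 0.00 over all genes. Blood-derived clones had Col4a1 values of 0.96 to 2.41 and fibroblast-derived clones of 1.62 to 3.08, with means of 1.48 ± 0.34 (SD, n = 31) and 2.19 ± 0.43 (SD, n = 11). The difference was -0.83 ± 0.10 (SE), with adjusted p = 2.14e-08 (limma). For Col4a2 the ranges were 0.55 to 2.51 and 1.27 to 2.82, and the difference was -0.84 ± 0.13 (SE) with adjusted p = 7.85e-07 (limma). Both ranges overlapped. Without iPSC-32 the differences were -0.74 and -0.75, and again 4 members passed.

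Sox17 ran from -3.53 to -2.99 in blood-derived and from -3.79 to -3.19 in fibroblast-derived clones, a difference of 0.19 ± 0.06 (SE) with adjusted p = 0.00453 (limma). This is near the bottom of the scale, and with the mean of the gene's probe sets the difference was 0.05 and did not pass. Within mouse 1, mouse 2 and chimera 2 it was 0.31, 0.02 and 0.23, and it passed in none of them. Lama1 ran from 0.60 to 1.60 and from -0.34 to 1.47, a difference of 0.20 ± 0.09 (SE) with adjusted p = 0.0493 (limma), and it did not pass after quantile normalization (0.13, adjusted p = 0.205, limma) or within any of the 3 animals. In the test of any difference among the 4 origins, 3 of 10 members passed (Col4a1, Col4a2 and Sox17), where 38% of all genes did. With 1 mean per animal and cell type 0 members passed in that test of 4 origins, while 2050 genes still did. For blood against fibroblast origin the same averaging kept 4 of 10 members, where 4299 genes passed. Of these members 2 were higher and 2 lower with blood origin.

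Feeder fibroblast markers moved with this contrast. Of the 19 markers 18 were lower in blood-derived clones, with a median difference of -0.87. Their mean per array was 0.14 to 1.70 in blood-derived clones and 0.91 to 2.07 in fibroblast-derived clones. Across the 52 ESC and iPSC arrays, which share this marker mean, Pearson's r with it was 0.93 for Col4a1 and 0.95 for Col4a2, and within origin groups 0.84 and 0.91. For the other 8 genes r was between -0.34 and 0.35, and within origin groups it was 0.72 for Dab2, 0.49 for Lamb1 and -0.46 for Lama1. With the marker mean as a covariate the difference was 0.02 for Col4a1 (adjusted p = 0.894, limma) and 0.25 for Col4a2 (adjusted p = 0.0559, limma). In that fit Dab2 (0.78, adjusted p = 0.000153, limma) and Lamb1 (0.28, adjusted p = 0.00557, limma) were higher in blood-derived clones. Whether the markers come from feeder cells or from the clones was not tested.

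**Figure D3:**
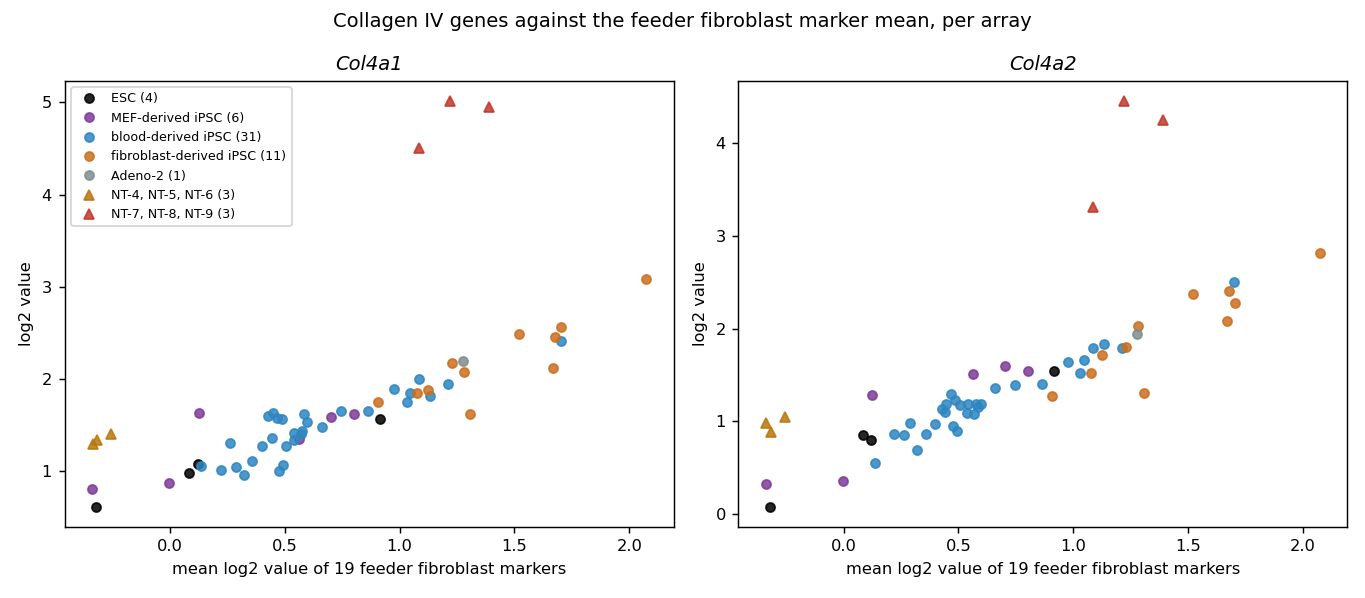
Log2 value of Col4a1 and of Col4a2 (vertical axes) against the mean log2 value of 19 feeder fibroblast markers (horizontal axes), with 1 point per array. ESC, MEF-derived, blood-derived and fibroblast-derived clones fall on one rising band, and NT-7, NT-8 and NT-9 lie above that band at marker means of 1.09, 1.22 and 1.39.

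The collagen difference was not the same in the 3 animals. The test of that difference between animals passed for 4 of 10 members, and 20.7% of all genes passed. Fibroblast-class clones were PF in mouse 1 and mouse 2 and TTF in chimera 2. For chimera 2 the animal and the kind of fibroblast-class clone therefore cannot be told apart. In mouse 2, blood-derived clones had Col4a1 at 1.06 to 1.63 and the 3 PF clones at 3.08, 2.45 and 2.56. In chimera 2, blood-derived clones were at 0.96 to 1.34 and the 6 TTF clones at 1.75 to 2.49. In mouse 1, blood-derived clones were at 1.40 to 2.41 and the 2 PF clones at 1.62 and 2.08. The groups were apart in mouse 2, also without iPSC-32 (3.08), and in chimera 2, and they overlapped in mouse 1.

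Within single animals the Col4a1 difference was -1.24 in mouse 2 (adjusted p = 2.24e-06, limma), -0.92 in chimera 2 (adjusted p = 3.1e-06, limma) and -0.05 in mouse 1 (adjusted p = 0.897, limma). For Col4a2 it was -1.41, -0.84 and -0.03 in the same order. The interaction passed for Col4a1 (range of the differences 1.19, adjusted p = 0.000626, limma) and Col4a2 (range 1.38, adjusted p = 0.00226, limma). The feeder marker mean followed the same layout, with group means of 0.41 to 0.49 in blood-derived and 1.82 in PF clones of mouse 2, 0.34 to 0.46 and 1.25 in chimera 2, and 0.79 to 1.14 and 1.29 in mouse 1.

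Dab2 and Gata4 also differed between animals in this contrast, with the same limit for the TTF clones of chimera 2. Dab2 was 0.34 higher in blood-derived clones of mouse 1, 0.69 lower in those of mouse 2 and 0.02 lower in those of chimera 2 (interaction adjusted p = 0.0289, limma). In mouse 2 the 11 blood-derived clones were at -1.74 to -1.07 and the PF clones at -0.36, -0.99 and -0.89, without overlap. Gata4 was 0.36 lower in mouse 1, 0.25 higher in mouse 2 and 0.10 higher in chimera 2 (interaction adjusted p = 0.0177, limma). Gata4 is among the dimmest 2952 genes, and its mouse 1 difference did not pass (adjusted p = 0.0502, limma). With the mean of probe sets the interaction passed for 2 members. Within mouse 2 alone Gata4, Gata6 (-0.31), Dab2, Cubn (-0.40), Col4a1 and Col4a2 passed, 6 of 10 where 38.2% of all genes passed. Within chimera 2 the 2 collagen genes passed, where 33.6% did, and within mouse 1, with 2 fibroblast-class clones, 0 members passed, where 13% did.

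**Figure D4:**
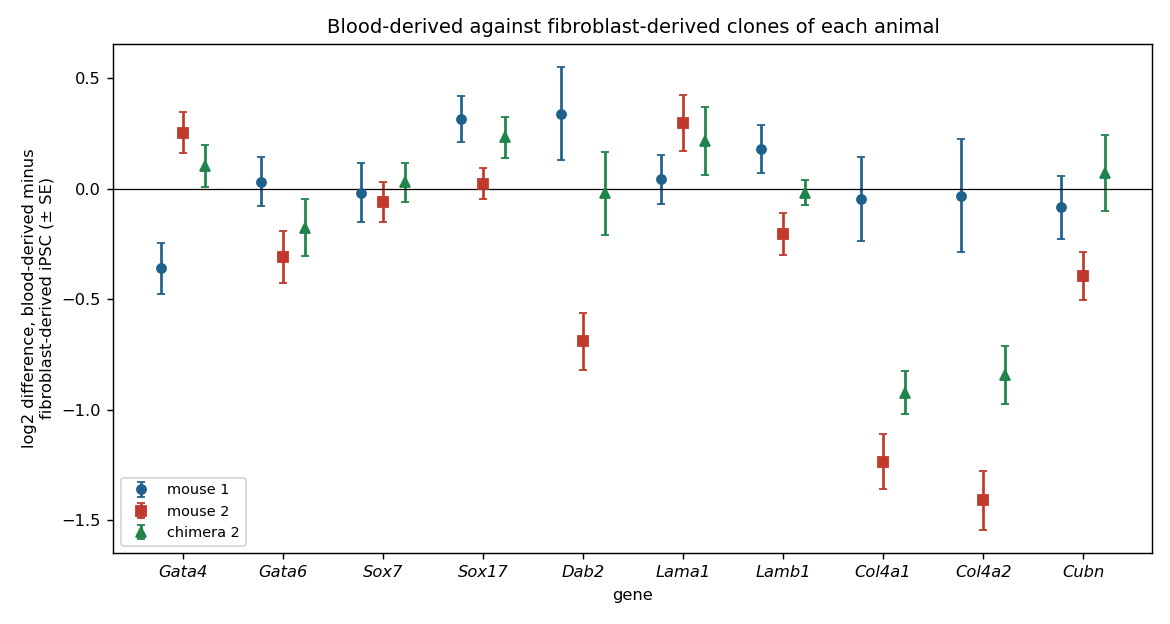
Log2 difference between blood-derived and fibroblast-derived clones, with its standard error, for each gene within mouse 1, mouse 2 and chimera 2. Col4a1 and Col4a2 lie near 0 in mouse 1 and between -1.41 and -0.84 in mouse 2 and chimera 2.

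Partner lists in the same contrast had both signs. Of 16 matrix genes 7 were higher and 5 lower in blood-derived clones, among them Itgb1 (-0.65, adjusted p = 4.88e-11), the matrix glycoprotein gene Sparc (-0.53, adjusted p = 3.71e-10) and the lysyl hydroxylase gene Plod2 (0.54, adjusted p = 8.9e-10) by limma. Of 21 visceral endoderm genes 6 were higher and 7 lower, with Fgg at 0.69 and Trf at 0.59. Of 13 parietal endoderm genes 1 was higher and 7 lower, with the activin antagonist Fst at -1.42 and thrombomodulin, Thbd, at -1.31. In the specification list Fgf4 was higher (0.39) and Foxa2 (-0.42) and Foxq1 (-0.25) were lower. Myo6 (0.69) was the only endocytic partner of 6 that passed. Across all genes 28.1% passed as higher and 21.6% as lower, and the feeder marker values given above moved with these lists too, and their part was not tested.

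Lama1 was lower in the clones of chimera 2 than in those of mouse 1 and mouse 2. In the test of any difference between animals, 5 of 10 members passed (Lama1, Col4a1, Col4a2, Cubn and Dab2), where 44.9% of all genes did. Lama1 was at 1.28 ± 0.15 (SD, n = 13) in clones of mouse 1, 1.36 ± 0.24 (SD, n = 14) in clones of mouse 2 and 0.72 ± 0.33 (SD, n = 15) in clones of chimera 2 (adjusted p = 1.18e-06, limma). Among blood-derived clones alone the ranges were 0.96 to 1.47, 1.09 to 1.60 and 0.60 to 1.04. Those of mouse 2 and chimera 2 did not overlap, and those of mouse 1 and chimera 2 overlapped from 0.96 to 1.04. All TTF clones came from chimera 2, and the lowest Lama1 value of all iPSC, -0.34, was in one of them, iPSC-46. Cubn was at -2.23 ± 0.20 (SD, n = 13), -2.40 ± 0.24 (SD, n = 14) and -1.99 ± 0.35 (SD, n = 15) in mouse 1, mouse 2 and chimera 2 (adjusted p = 0.00618, limma), and the ranges overlapped. Dab2 was lowest in mouse 2, at -1.29 ± 0.36 (SD, n = 14).

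**Figure D5:**
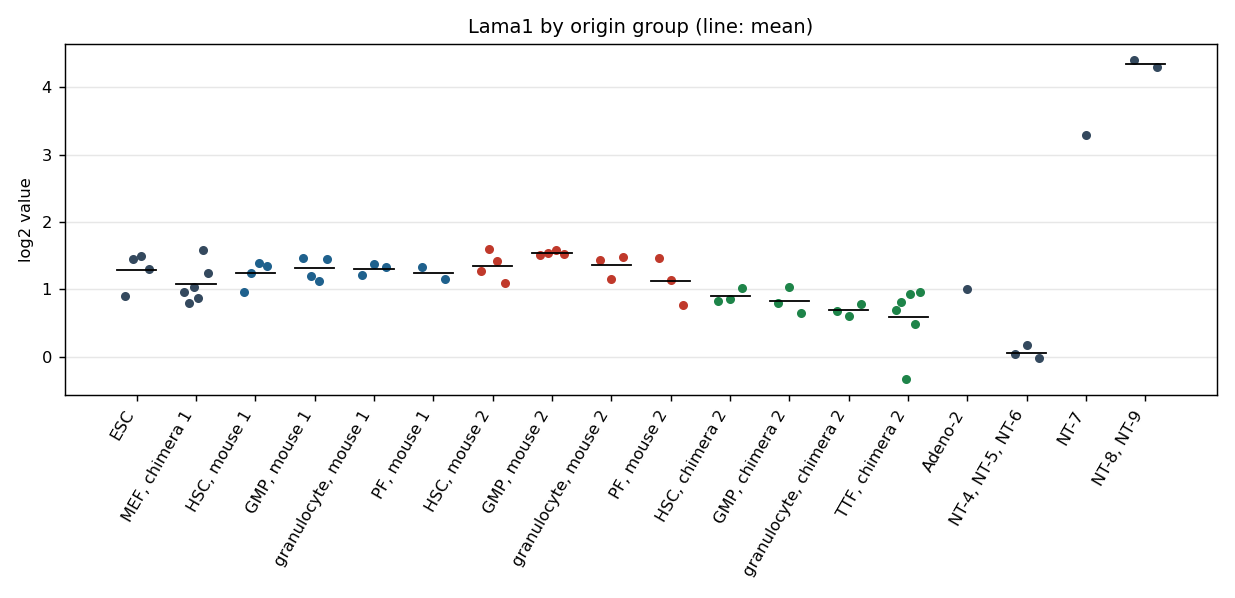
Log2 value of Lama1 in each array, by origin group, with the group mean as a line, in blue for mouse 1, red for mouse 2 and green for chimera 2. The means of the 4 groups of chimera 2 lie below those of mouse 1 and mouse 2, NT-4, NT-5 and NT-6 lie between -0.03 and 0.18, and NT-7, NT-8 and NT-9 lie between 3.29 and 4.41.

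Lama1 was also the member that separated NT-4, NT-5 and NT-6 from ESC. It was at 0.03, 0.18 and -0.03 in these lines and at 0.90, 1.46, 1.49 and 1.30 in ESC, without overlap. The difference was -1.23 ± 0.15 (SE), with adjusted p = 0.00823 (limma). It was the only 1 of 10 members that passed, and 3.96% of all genes did, 1.96% as lower. Without NT-4 (-1.21, adjusted p = 0.0567, limma) or without NT-6 (-1.18, adjusted p = 0.0595, limma) Lama1 did not pass. The donor Adeno-2 was at 1.00, so that the 3 subclones were also 0.82 to 1.02 below it. The lines were subclones of 1 donor, so the spread between them is not that of separate donors. The feeder marker mean was -0.34 to -0.25 in the 3 lines, 1.28 in Adeno-2 and -0.32 to 0.91 in ESC. Against Adeno-2, 0 of 10 members were at least 1 log2 unit higher in any of the 3 lines, where 0.525%, 0.5% and 0.5% of all genes were. Col4a2 in NT-4 (-1.06) and Lama1 in NT-6 (-1.02) were the members at least 1 lower, where 2.02% of all genes were that far below in each line.

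The 6 NT-ESC were also tested as 1 group, which holds lines far above and lines near or below their donors. Against the donors, with donor as a block, 0 members passed by limma, where 0.0593% of all genes (7 genes) did, 0.0169% as higher and 0.0423% as lower. Against ESC 0 members passed, and 0.00847% of all genes (1 gene) did. At an unadjusted p under 0.05 there were 4824 genes against the donors and 2074 against ESC.

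Across the 52 ESC and iPSC arrays the members did not vary as a block. Pearson's r between pairs had a median of 0.094 over 45 pairs and was above 0.5 for 3 of them, Col4a1 with Col4a2 (0.96), Dab2 with Lamb1 (0.64) and Gata6 with Cubn (0.51). With NT-4 to NT-9 and Adeno-2 added, over 59 arrays, the median r was 0.744 and 38 of 45 pairs were above 0.5, but Spearman's rho had a median of 0.197 and was above 0.5 for 4 pairs. With the last 3 NT-ESC lines left out, over 56 arrays, the median r was 0.046 and 2 pairs were above 0.5, so the high r rests on NT-7, NT-8 and NT-9. Clones of an origin group share an animal and cell of origin, and with these removed (deviations within groups, 52 arrays) the median was 0.077 and 6 pairs were above 0.5. The genes most like each member by r over the 52 arrays were Utf1 for Lama1 (0.85), Atp6ap1 for Dab2 (0.82), Fn1 for Lamb1 (0.76) and Srgn for Cubn (0.71). For Col4a1 it was Col4a2 (0.96), for Col4a2 it was Col5a1 (0.96), a fibrillar collagen gene of the feeder list, and for Gata4, Gata6, Sox7 and Sox17 no gene reached 0.6. The likeness of Srgn to Cubn was 0.78 within groups and 0.94 over 59 arrays, which include those 3, where that of Utf1 to Lama1 was 0.66 and 0.00.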

How the data were processed

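Per the labels, total RNA (miRNeasy) was labelled as biotinylated cRNA for Affymetrix arrays, 1 per line. The authors deposited log2 intensities for 22626 probe sets. The base of 2 and the centring of each array near 0 were inferred from the values. Scan batches, normalization and summarisation were not given in the sources used here. Probe sets were named from the platform annotation (18003 with 1 gene, 287 with several). Each of 11807 genes was represented by its brightest probe set.

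limma 3.58.1 in R 4.3.3 (lmFit, eBayes, 2-sided, Benjamini-Hochberg over all genes, threshold 0.05) gave every adjusted p. Fits compared ESC with MEF-derived and all iPSC, 42 clones by origin and animal (main effects and interaction), and NT-ESC with ESC or, with donor as a block, with donors. The fits were also run on simulated independent values with 2 log2 units added to 200 genes. That run does not bear on smaller differences or on clones that share an animal or donor. Labels do not say whether clones are separate cultures, so p-values measure the spread between clones. The number of arrays limits precision. Alternatives were quantile normalization, a filter under the 40th percentile, the mean of probe sets, trended robust eBayes, other blocks and covariates, and leaving out arrays or animals. Within-animal fits and a choice of probe sets over the other 56 arrays were added after the data were seen. Members, lists and named genes (members, list genes and, for likeness, highest Pearson's r over 52 arrays) were chosen with earlier results of these data known.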

Additional observations from a re-analysis of the deposited data

Results flagged for a closer look

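In groups of 4 to 10 arrays, 7 of the 70 combinations of gene and group had an array farther from its neighbours than Dixon's 95% limit, and chance gives about 5%. Sox17 in ESC-2 was at -2.79, with the nearest ESC at -3.25. Cubn in iPSC-4, a MEF-derived clone, was at -0.90 (nearest -2.09). Gata4 in iPSC-24 of the HSC clones of mouse 2 was at -1.71 (nearest -1.96), and Sox7 in iPSC-26 of the GMP clones of mouse 2 was at -2.60 (nearest -2.90). On the low side, Col4a2 was at 1.36 in iPSC-11 of the GMP clones of mouse 1 (nearest 1.79) and at 0.55 in iPSC-21 of the HSC clones of mouse 2 (nearest 1.18), and Lama1 was at -0.34 in iPSC-46 of the TTF clones (nearest 0.49).

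The difference between blood-derived and fibroblast-derived clones was not the same in the 3 animals for 4 genes, by limma's test of that interaction. The range of the within-animal differences was 0.61 log2 units for Gata4, 1.03 for Dab2, 1.19 for Col4a1 and 1.38 for Col4a2.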

How the results depend on the processing

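The 17 member results past the threshold had 131 alternatives. In 99 the result still passed with no change of sign, in 29 it no longer passed, and in 3 it changed sign. Only contrasts with a direction could change sign. The tests of any cell type, any animal and the interaction give a range, which has no direction to lose. The 73 other member results had 768 alternatives, of which 31 passed, several of them for the same result. Another sign was found in 55 of these alternatives that did not pass and in 9 that did. These counts include the fits that pool NT-7, NT-8 and NT-9 with the other NT-ESC, from which nothing is read. The cause was not tested except where fewer genes or arrays entered. In the comparison of ESC with all iPSC 583 of 11807 genes were called in the main fit and 0 with animal as a random block. The count of members called was 1 with the mean of probe sets (653 genes of all) and 1 without the MEF-derived clones (2280 genes). It was 3 with equal weight per origin group (3039 genes) and 0 to 1 when each ESC clone was left out (5 to 1112 genes). For blood-derived against fibroblast-derived clones the count of members called was 2 with the feeder marker mean as a covariate (2081 of 11807 genes). It was 2 within chimera 2 (3963 genes) and 0 within mouse 1 (1532 genes). With that covariate Dab2 (0.78), Lama1 (-0.10), Lamb1 (0.28), Col4a1 (0.022) and Col4a2 (0.25) changed sign. Gata4 (-0.18), Gata6 (0.10) and Cubn (0.22), which passed in neither fit, changed sign too. The filter left out genes under the 40th percentile. Gata4, Gata6, Sox7, Sox17, Dab2 and Cubn lay under it, so counts with the filter do not show whether these genes would pass. For any cell type the count of members called was 0 with 1 mean per animal and cell type (2050 genes). For any animal it was 3 with the filter (4301 of 7084 genes). For the interaction it was 2 with the filter (2227 of 7084 genes) and 2 with the mean of probe sets (2372 of 11807 genes). For NT-4 to NT-6 against ESC it was 0 to 3 when each array was left out, with 44 to 2650 genes called (3 without ESC-1, 0 without NT-4 or NT-6). With NT-4 to NT-6 as the only NT-ESC it was 6 against donors (2042 genes of all), a fit with the single Adeno-2 array as one arm, whose feeder marker mean was 1.28 against -0.34 to -0.25 in the subclones. In that fit Sox7 (-0.70), Dab2 (-0.76), Lama1 (-0.94), Col4a1 (-0.86), Col4a2 (-0.97) and Cubn (-0.67) were lower in NT-4 to NT-6 than in Adeno-2. Against ESC the count was then 1, with Lama1 at -1.23. Leaving out single arrays gave 0 to 0 in those comparisons and for MEF-derived clones. With a limit of 0.5 log2 units 8 arrays had 3 or more genes raised, instead of 3.

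ESC and iPSC or NT-ESC share only a number. With it as a replicate block, 0 members passed against MEF-derived clones (15 genes, 0 without) and 1 against NT-4 to NT-6 (166 genes, 468 without). Same-numbered arrays deviated together with r of 0.06 to 0.35 and -0.16 to 0.28, so not every pair was above 0.1.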
